A study of Prunus dulcis and Prunus persica and Prunus persica x Prunus dulcis with 15 samples.

Results

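The transposable elements (TEs) of the peach genome that have a methylation percentage in both the interspecific hybrid and peach are described here, TE by TE. A TE entered in a cytosine context where both genotypes had a percentage, which held for 17337 TEs in CG, 17470 in CHG and 18822 in CHH, of 33879 TEs listed for peach. All 3 contexts could be compared in 16712 TEs. The paired difference is the hybrid percentage minus the peach percentage of the same TE, in percentage points.

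The hybrid was a single F1 individual from the cross of peach (Prunus persica cv Early Gold) with almond (Prunus dulcis cv Texas), and the peach samples were of the cv Early Gold. Trees of both grew in the field with normal watering, and fully expanded leaves were taken at the end of September. DNA methylation was measured by whole genome bisulphite sequencing (WGBS) of 2 libraries per genotype. Hybrid reads were aligned to the peach genome with a relaxed mismatch threshold, so that reads of the peach and almond chromosomes of the hybrid cannot be told apart in its percentages. The peach and almond genomes differ at single bases, and the part of this in the hybrid percentages was not tested. The table holds 1 percentage per TE, context and genotype without its coverage. No difference could therefore be set against the spread between replicates, the depth is unknown, and the SDs below describe the spread among TEs. TEs are not replicates, and no p-value is given.

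Plants methylate cytosines before a guanine (CG) and also in CHG and CHH sequences, H standing for A, C or T. CG methylation is copied at replication by MET1, CHG methylation is kept by chromomethylases that are recruited by methylated histone H3, and CHH methylation is set anew by RNA-directed DNA methylation or by a chromomethylase. TEs usually carry all of these marks and are silenced by them. LTR retrotransposons and LINEs move through an RNA copy, and TIR transposons and the short MITEs derived from them are DNA elements.

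The hybrid had lower CG and CHG percentages than peach on most TEs and nearly the same CHH percentages. The means in CG were 88.9% in the hybrid and 91.3% in peach, with a paired difference of −2.44 ± 7.52 points (SD over TEs). In CHG they were 61.4% in the hybrid and 66.1% in peach, a difference of −4.70 ± 9.43 points. In CHH they were 14.8% in both, with a difference of 0.0269 ± 5.31 points. The 25th and 75th percentiles of the difference were −3.80 and −0.244 points in CG, −8.60 and −1.08 points in CHG, and −1.51 and 1.35 points in CHH. The middle of the distribution thus lay below 0 in CG and CHG and on both sides of 0 in CHH. The hybrid was lower in 78.4% of TEs in CG, in 79.7% in CHG and in 51.8% in CHH, and it was higher in 21.2%, 19.7% and 47.8% in the same order.

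Differences of over 10 points were mostly towards lower values in the hybrid, except in CHH. In CG, 1234 TEs were lower in the hybrid by more than 10 points and 338 were higher, or 7.12% and 1.95% of those compared. In CHG, 3298 TEs were lower and 834 were higher, or 18.9% and 4.77%. In CHH, 555 TEs were lower and 637 were higher, or 2.95% and 3.38%. These shares are the background against which single groups of TEs are read below.

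**Figure D1:**
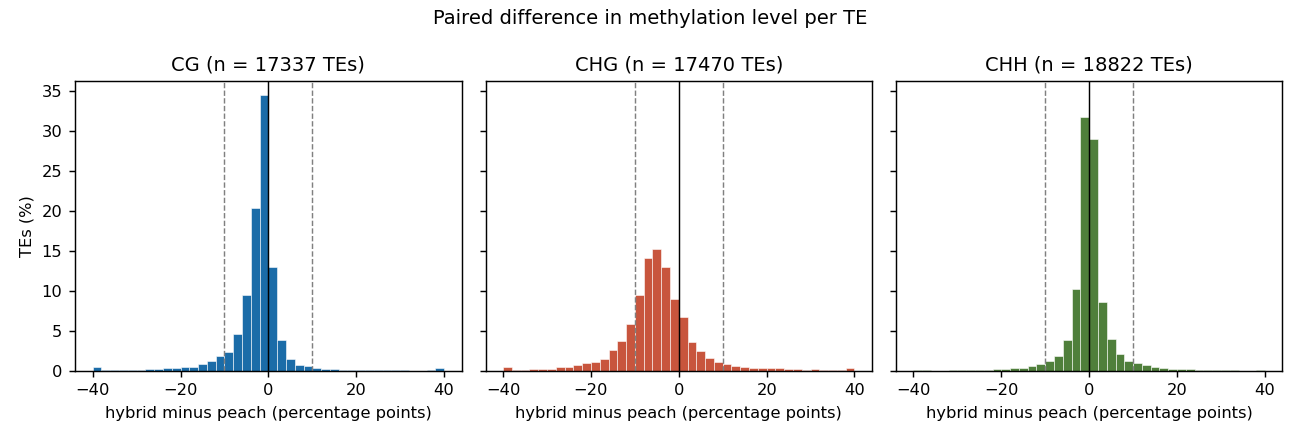
Percent of TEs (y axis) by paired difference in methylation, hybrid minus peach, in bins of 2 percentage points (x axis), for CG, CHG and CHH. Differences beyond 40 points are placed in the outermost bins, dashed lines mark 10 points either way, and the middle of the CHG distribution lies to the left of 0 with a median of −5.03 points, against −1.62 in CG and −0.0772 in CHH.

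The TEs that could not be paired were not a random subset. Of 23144 TEs with a CHH percentage in peach, 4322 had none in the hybrid, and their mean in peach was 27.7%, against 14.8% for the TEs with both values. In CG and CHG the TEs without a hybrid value had slightly lower levels in peach, with 88.9% against 91.3% in CG and 61.9% against 66.1% in CHG. They were also short, with medians of 387 to 421 bp over the contexts. A hybrid value was found for 55.3% of the TEs under 300 bp with a CG value in peach and for 98.1% of those of 10000 bp or more. What follows holds for the TEs that could be compared.

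In CG and CHH the spread among TEs was narrower in longer TEs, and in CHG the median difference was also farther below 0. In CG, TEs under 300 bp had means of 84.6% in the hybrid and 87.5% in peach, with a difference of −2.90 ± 10.9 points, and 62.8% of them were lower in the hybrid. TEs of 10000 bp or more had means of 92.6% in the hybrid and 94.7% in peach, with a difference of −2.08 ± 3.69 points, and 90.2% of them were lower. Long TEs thus differed by a similar amount, but more uniformly. The SD in CHH likewise went with length, and was 7.47 points under 300 bp and 2.08 points at 10000 bp or more.

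In CHG the median difference was −2.77 points for TEs under 300 bp, −4.71 points for those of 1000 to under 2000 bp and −5.80 points for those of 10000 bp or more. The share that was lower by over 10 points was 24.2% under 300 bp and 10.3% at 10000 bp or more. The SD did not narrow steadily, being 7.62 points at 2000 to under 5000 bp and 8.08 points at 10000 bp or more. The share higher in the hybrid by over 10 points was 6.95% under 300 bp, 2.79% at 2000 to under 5000 bp and 5.85% at 10000 bp or more, beside 4.77% of all TEs. Among LTR retrotransposons of 10000 bp or more, 10.1% were higher by over 10 points, while their median difference was −5.36 points and their mean −2.79 points.

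**Figure D2:**
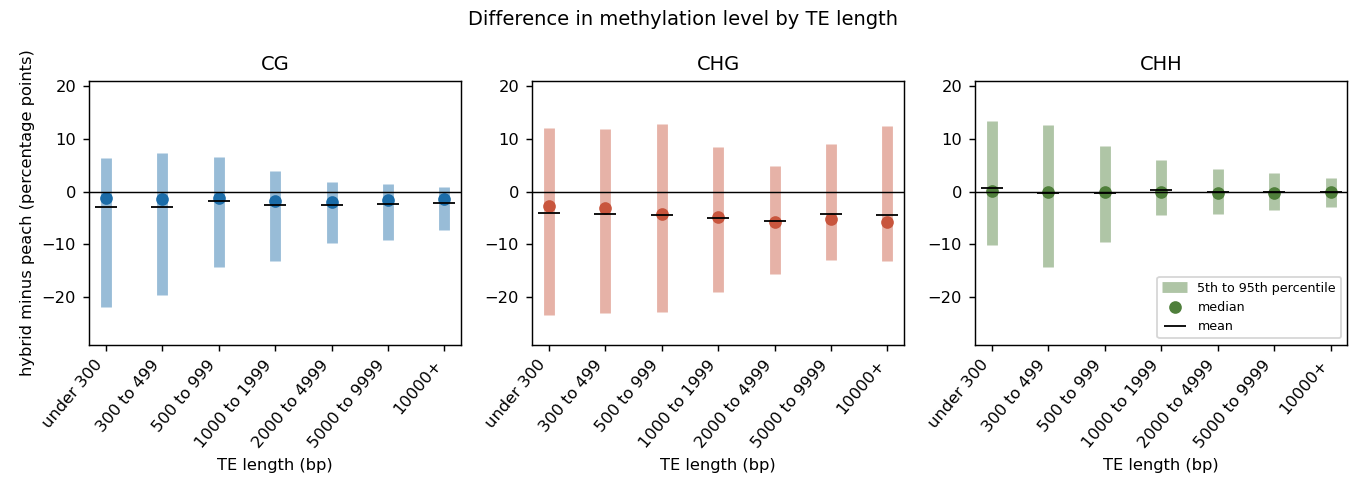
Paired difference, hybrid minus peach, in percentage points (y axis) by TE length in bp (x axis) for CG, CHG and CHH. Circles are medians, black dashes are means and bars span the 5th to the 95th percentile of TEs. The bars shorten with length in CG and CHH, while the upper end of the CHG bar lies at 12.5 points for TEs of 10000 bp or more, against 4.88 points at 2000 to under 5000 bp.

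Methylation levels differed with TE length, so length was examined again among TEs of a similar peach level. Among TEs with a CHG level of 60% to under 80% in peach, the SD of the difference was 12.1 points under 300 bp and 4.45 points at 10000 bp or more, and the means were −5.16 and −6.45 points. Among TEs with at least 90% CG methylation in peach, the SD was 6.41 points under 300 bp and 2.96 points at 10000 bp or more. The narrowing with length was therefore present within a level. A percentage over a short TE rests on fewer cytosines, and the part of this in the spread was not tested.

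The difference was not the same at every starting level. By the level in peach, the median CHG difference was 0.234 points for TEs at 0 to 10%, −6.37 points at 60 to 70% and −2.22 points at 90 to 100%. The peach value enters both the level and the difference, so that TEs with an unusually high peach value are pushed towards a negative difference by the way the bins are made. The bins were therefore also made on the mean of both genotypes. The medians were then 0 points at 0 to 10%, −7.30 points at 50 to 60%, −6.79 points at 60 to 70% and −0.0223 points at 90 to 100%. The lowest median lay at 60 to 70% by the peach level and at 50 to 60% by the mean of both. In both ways TEs of the lowest and the highest bin were closer to peach. The ways differed lower on the scale. By the peach level the medians were 2.78 points at 20 to 30% and −0.122 points at 30 to 40%. By the mean of both they were −3.37 and −5.15 points.

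In CG the medians by the mean of both genotypes were 0 points at 0 to 10%, −2.71 points at 30 to 40%, −10.7 points at 40 to 50%, −5.99 points at 80 to 90% and −1.48 points at 90 to 100%. The intermediate CG bins held 113 to 398 TEs each between 10 and 80% and followed no steady course. At least 90% on that scale was reached by 14260 of the 17337 TEs. TEs with under 10% CG methylation in peach had means of 11.6% in the hybrid and 2.31% in peach, but a median difference of only 0.256 points. Their mean came from 73 of 298 TEs that were higher by over 10 points, or 24.5%, beside 1.95% of all TEs. A TE under 10% in peach cannot be lower by over 10 points, so this direction was set by the bin. By the mean of both genotypes, 9 of 247 TEs at 0 to 10% were higher by over 10 points and 13 were lower. In CHH the medians by the mean of both genotypes stayed between −0.178 and 1.52 points over all bins.

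**Figure D3:**
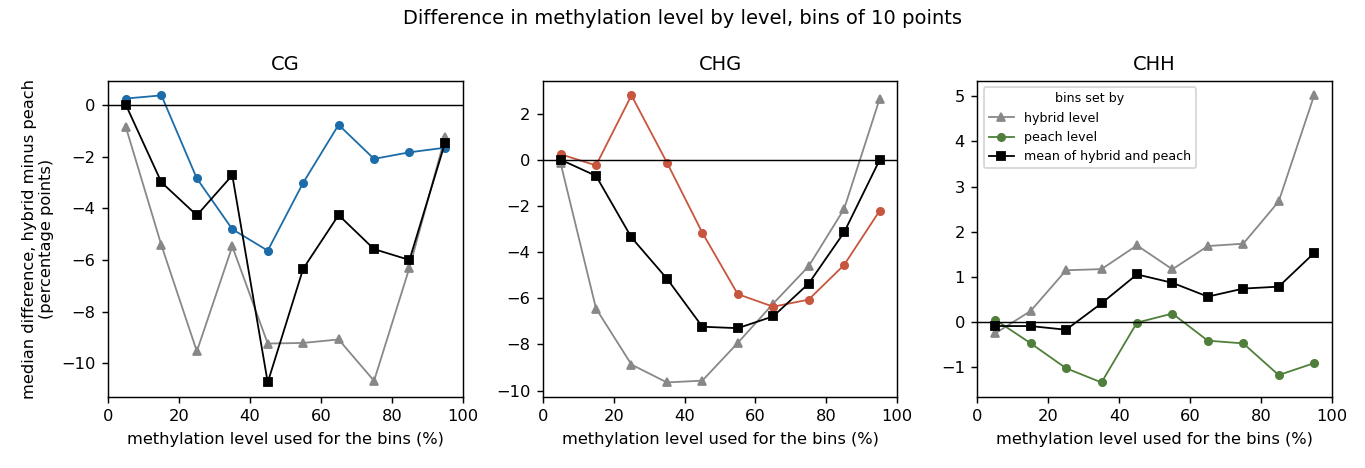
Median paired difference, hybrid minus peach, in percentage points (y axis) in bins of 10 points of the methylation level in percent (x axis), with the bins set by the hybrid level (triangles), the peach level (circles) or the mean of both (squares). In CHG the squares reach −7.30 points at 50 to 60% and lie at 0 and −0.0223 points in the lowest and the highest bin. The distance between the 3 lines in a panel is set by which genotype's value enters the bins.

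The level in another context gave a view of the starting level that does not contain the value compared. TEs with at least 90% CG methylation in peach had CHG means of 65.1% in the hybrid and 70.4% in peach, a difference of −5.24 ± 8.29 points over 14841 TEs. Those with 50 to 60% CG methylation had CHG means of 28.9% in the hybrid and 30.1% in peach, a difference of −1.25 ± 16.9 points over 134 TEs. The course over the bins was not steady, with a mean of −3.07 points at 40 to 50% CG and 4.75 points at 0 to 10%. In CHH the lowest mean difference among the bins of peach CHG level was −0.471 points at 80 to 90%, and the highest was 1.13 points at 40 to 50%.

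Combining CG and CHG gave groups of long TEs with opposite mean differences. Among TEs of at least 2000 bp, 7506 had at least 80% CG and 60% CHG methylation in peach, and their CHG means were 68.0% in the hybrid and 74.1% in peach. Of these, 93.5% were lower in the hybrid, and only 27 were higher by more than 10 points. Another 181 TEs of that length had at least 80% CG but under 30% CHG methylation in peach, and their CHG means were 32.7% in the hybrid and 15.3% in peach. Of these, 120 were higher in the hybrid by more than 10 points, or 66.3%. Many of the 181 TEs were copies of 3 elements described below or lay near clustered copies. Of the 62 other TEs at 1 Mb or more from these clusters, 10 were higher by over 10 points, or 16.1%. A low peach value chose the 181 TEs and enters their difference, so that the share over TEs of every level, 4.77%, is not a like background. Shorter TEs chosen by the same peach levels had CHG means of 11.5% in the hybrid and 9.32% in peach and a median difference of 0.21 points, and 43 of 312 were higher by over 10 points, or 13.8%.

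The difference was spread over all chromosomes. The median was below 0 on 8 of 8 chromosomes in CG and in CHG, and lay between −1.87 and −1.35 points in CG and between −5.56 and −4.65 points in CHG. In CHH it was below 0 on 6 of the 8, between −0.303 and 0.105 points. Chromosomes were divided further into windows of 1 Mb with at least 20 TEs compared. The mean difference was below 0 in 207 of 212 windows in CG, in 204 of 211 in CHG and in 110 of 221 in CHH.

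Windows were also sorted into 4 groups by the number of TEs listed in them. In CHG the mean difference was −4.15 points in the windows with the fewest TEs and −5.16 points in those with the most. In CHH these means were −0.198 and 0.208 points, and in CG −2.44 and −2.49 points. The TEs of the windows with the fewest TEs were shorter, with a median of 746 bp against 2620 bp in CHG, so that length and TE density cannot be told apart in these values.

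Neighbouring TEs that do not overlap resembled each other over short distances. Across pairs less than 1000 bp apart, the correlation of the CHG differences was 0.286 over 2799 pairs. It was 0.147 for pairs 1000 to 10000 bp apart and 0.0385 for pairs 10000 to 100000 bp apart. In CG it was 0.163, 0.0511 and 0.0246 over the same distances, and in CHH 0.130, 0.0507 and −0.00119. These are correlations across TEs of the same libraries and are given as a description.

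The lowest windows were alike in the 3 contexts in one place. The window of chromosome 5 from 11 to 12 Mb had the lowest mean in CG and in CHG, with −9.93 and −8.43 points over 45 TEs. In CHH its mean over 46 TEs was −3.32 points, equal to these digits to that of the lowest window, on chromosome 8 from 19 to 20 Mb. Its medians were −2.72 points in CG and −5.13 points in CHG, so that a subset of TEs much lower in the hybrid set the means. The highest mean in CG was 1.77 points, on chromosome 1 from 3 to 4 Mb, and that in CHH was 3.84 points, on chromosome 4 from 6 to 7 Mb. In CHG the highest mean was 5.99 points, on chromosome 5 from 7 to 8 Mb.

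The 6 windows with the highest CHG means lay on 6 different chromosomes and had a common feature. Each held from 15 to 35 compared copies of the same element, Ppersica_LTRretrotransposon1158, an LTR retrotransposon by its name. This element also had the highest mean CHG difference of the 131 elements with at least 20 compared copies. The description of its copies and of the regions around them that follows was made after these values had been seen.

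Ppersica_LTRretrotransposon1158 had 280 listed copies, of which 278 lay within 1 Mb of the median copy of their chromosome, so that each of the 8 chromosomes had a single cluster. In CHG, 166 copies could be compared, with means of 53.4% in the hybrid and 39.8% in peach. The difference was 13.7 ± 15.1 points, and 133 copies were higher in the hybrid, 101 of them by more than 10 points. The hybrid values ran from 15.9% to 89.5% (median 53.7%) and the peach values from 4.85% to 82.2% (median 35.8%). Copies varied widely in both genotypes and their ranges overlapped, but no hybrid value was under 15.9%.

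The differences of this element in CG and CHH were small beside that in CHG. In CG the means of its copies were 93.0% in the hybrid and 94.2% in peach, a difference of −1.18 ± 4.04 points over 174 copies. In CHH they were 11.2% in the hybrid and 10.4% in peach, a difference of 0.840 ± 6.02 points over 197 copies. A copy on chromosome 5 at 6959388 to 6965461 had the largest CHG difference, with 65.7% in the hybrid and 15.1% in peach, while it had 91.8% CG methylation in the hybrid and 96.0% in peach. The copy with the lowest difference, on chromosome 4 at 21179278 to 21182770, had 33.9% CHG methylation in the hybrid and 56.9% in peach.

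The mean CHG difference of the element was above 0 on 7 of the 8 chromosomes. It was 18.9 points on chromosome 2 (n = 21 copies), 18.2 on chromosome 3 (n = 23), 16.1 on chromosome 5 (n = 41), 14.4 on chromosome 8 (n = 8), 13.5 on both chromosomes 4 (n = 17) and 7 (n = 16), and 9.64 on chromosome 1 (n = 26). On chromosome 6 it was −1.35 points over 14 copies, with means of 56.8% in the hybrid and 58.1% in peach. The copies of chromosome 6 had the highest mean in peach among the chromosomes, and those of chromosomes 3 and 4 the lowest, with 44.3% in the hybrid and 26.2% in peach on chromosome 3, and 39.6% in the hybrid and 26.2% in peach on chromosome 4.

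A pair of other elements had high CHG means too. Copies of Ppersica_LTRretrotransposon563, annotated as a gypsy LTR retrotransposon, had means of 56.1% in the hybrid and 47.2% in peach over 30 copies, a difference of 8.87 ± 15.2 points. Copies of Tedenovo12119 had means of 54.5% in the hybrid and 43.7% in peach over 24 copies, a difference of 10.8 ± 14.7 points. Their CG differences were −1.06 and −2.46 points. The 3 elements together supplied 68 of the 109 TEs of at least 5000 bp that were higher in the hybrid by more than 20 points in CHG, and Ppersica_LTRretrotransposon1158 alone 50. Without their copies, 2454 of 2549 compared TEs of 5000 to under 10000 bp and 1230 of 1316 of 10000 bp or more were left. The mean CHG difference of the latter was −5.63 points in place of −4.33, and 1.63% of them were higher by over 10 points. The 3 elements were named for their high CHG means, so these counts and shifts follow in part from that choice.

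**Figure D4:**
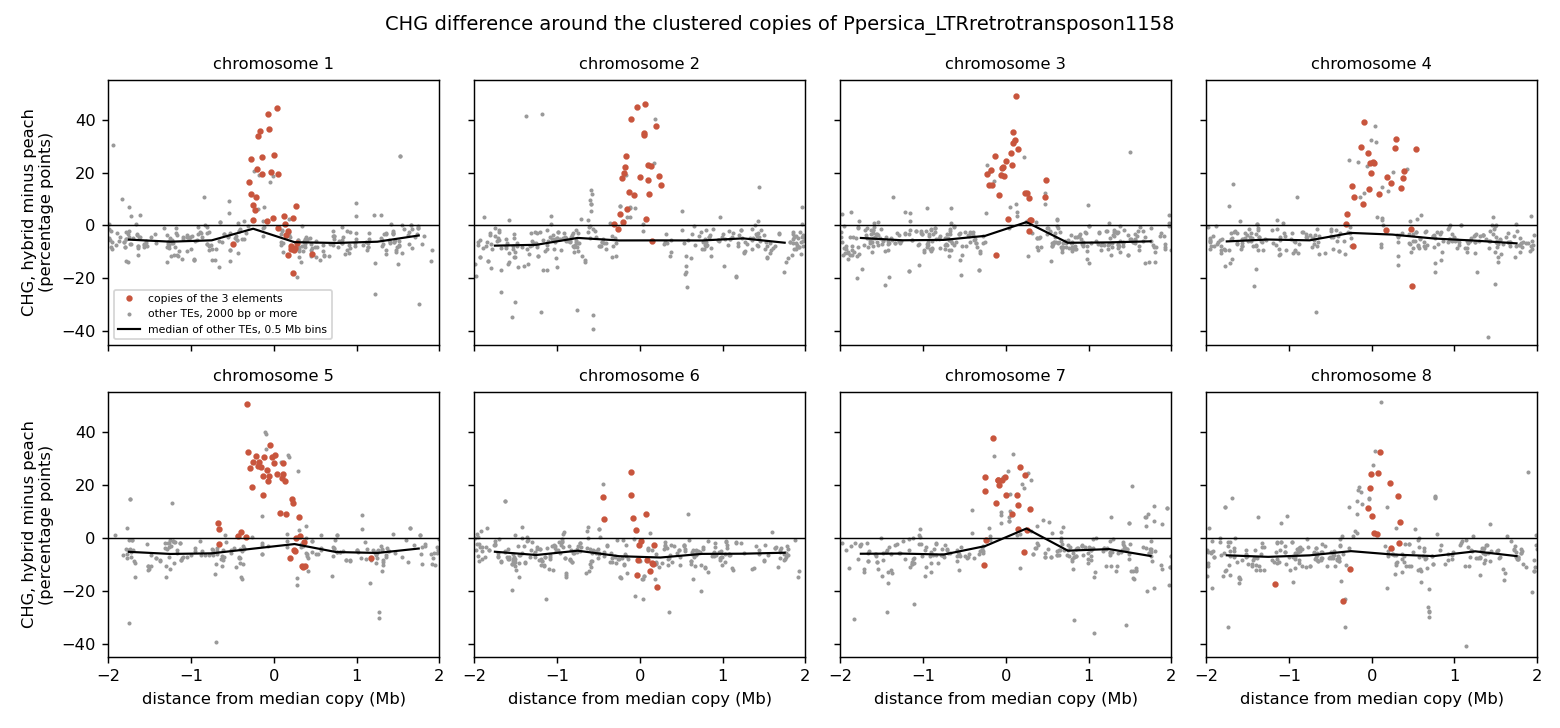
CHG difference of single TEs, hybrid minus peach, in percentage points (y axis) by distance in Mb from the median copy of Ppersica_LTRretrotransposon1158 (x axis), for each of the 8 chromosomes. Red points are copies of the 3 elements, grey points are other TEs of at least 2000 bp that do not overlap them, and the black line is the median of the grey points in bins of 0.5 Mb. Most red points and a part of the grey points close to the median copy lie above 0, whereas the black line stays below 0 in most bins, and on chromosome 6 the mean over copies of Ppersica_LTRretrotransposon1158 was −1.35 points.

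TEs of other elements close to the median copies were also higher in the hybrid on average. Among TEs of at least 2000 bp that were not copies of the 3 elements and did not overlap one, 151 lay within 0.25 Mb of the median copy, with CHG means of 58.8% in the hybrid and 53.3% in peach. Their mean difference was 5.50 ± 14.7 points, the median was 1.91 points, and 31.8% of them were higher by over 10 points. At 1 Mb or more from the median copy there were 7800 such TEs, with CHG means of 63.7% in the hybrid and 69.3% in peach. Their mean difference was −5.64 ± 6.65 points and 1.67% were higher by over 10 points. The difference was already −5.18 points at 0.25 to 0.5 Mb, over 279 TEs.

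The peach level near the clusters was lower than elsewhere, so the TEs were compared again within ranges of the peach CHG level. Below 30%, the 26 TEs near the median copy had means of 36.7% in the hybrid and 10.7% in peach, and 25 were higher by more than 10 points. The 271 TEs of that level at 1 Mb or more had means of 14.0% in the hybrid and 10.3% in peach, with a median difference of −0.0573 points. Of these 271 TEs, 47 were higher by more than 10 points, or 17.3%. From 30% to under 60%, the mean difference was 9.53 points near the clusters (n = 50 TEs) and −4.13 points away from them (n = 906). At 60% or more, the differences were −4.31 points near (n = 75) and −6.23 points away (n = 6623). TEs with a low or intermediate CHG level thus differed between the places at a matched peach level, and highly methylated TEs were below peach in both.

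Copies of Ppersica_LTRretrotransposon1158 followed the same order. Those below 30% in peach had CHG means of 43.3% in the hybrid and 18.7% in peach (n = 61), those from 30% to under 60% had 53.7% in the hybrid and 41.2% in peach (n = 68), and those at 60% or more had 69.6% in the hybrid and 71.9% in peach (n = 37). The 181 long TEs of high CG and low CHG methylation described above included 71 copies of the 3 elements, of which 65 were higher by more than 10 points. Of the 35 other TEs among the 181 within 0.25 Mb of the median copy, 34 were higher by that much. TEs that overlap a copy of the 3 elements were not left out here, so some of the 35 share sequence with such copies. At 1 Mb or more, 10 of 62 were, with a median difference of 0.335 points.

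**Figure D5:**
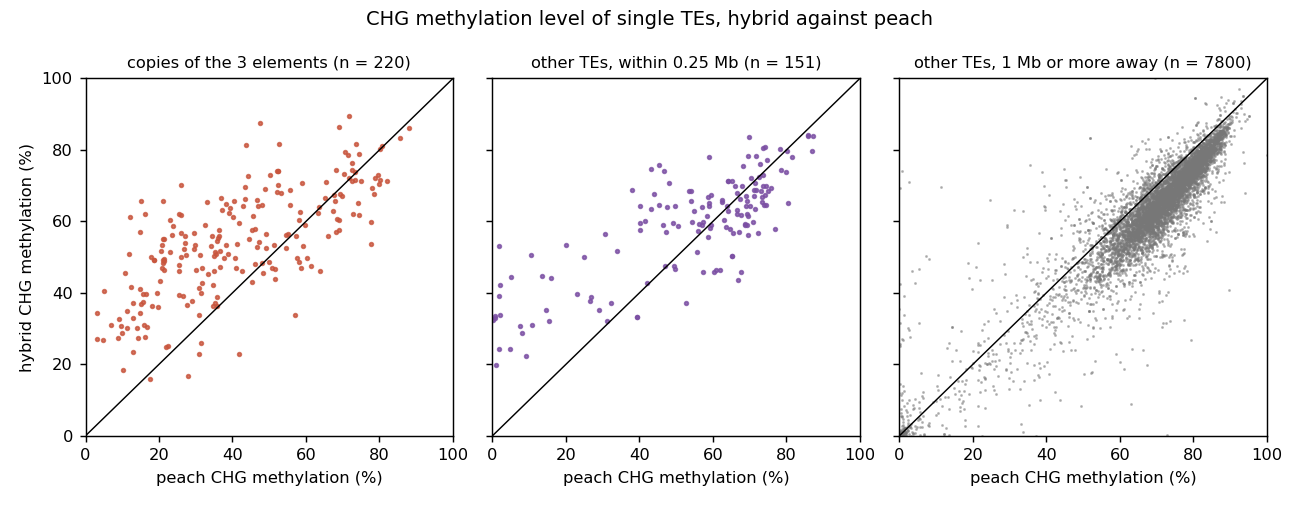
CHG methylation of single TEs in percent in the hybrid (y axis) against peach (x axis), for copies of the 3 elements, for other TEs of at least 2000 bp within 0.25 Mb of the median copy of Ppersica_LTRretrotransposon1158, and for such TEs at 1 Mb or more. The line marks equal values. Of the 26 TEs below 30% in peach in the middle panel, 25 lie more than 10 points above the line, while most of the 7800 TEs in the right panel lie just below it.

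By chromosome, the TEs of other elements within 0.25 Mb had mean CHG differences from 1.36 points on chromosome 1 (n = 23) to 14.3 points on chromosome 3 (n = 13) on the same 7 chromosomes, although the median on chromosome 1 was −2.17 points. On chromosome 6 the mean was −9.75 points over 31 TEs, with means of 59.7% in the hybrid and 69.5% in peach. TEs at 1 Mb or more had means between −6.20 and −5.11 points on all 8 chromosomes. In CG, the TEs within 0.25 Mb differed by −2.68 ± 3.79 points (n = 155), and in CHH by 1.06 ± 3.11 points (n = 157). In the table for the almond genome, Ppersica_LTRretrotransposon1158 had 1 listed copy, so no spread over copies can be given for the hybrid against almond. Ppersica_LTRretrotransposon563 had 6 copies with a CHG value in both there, with a mean difference of −1.34 ± 4.99 points, hybrid minus almond. Of the 6, 0 were higher by over 10 points, beside 6.41% of all TEs compared there, so that 6 copies are too few to tell from this share. The copies resemble each other in name and place, and reads were kept only where the best alignment was unique, so that how reads were shared among copies in the hybrid and in peach was not tested.

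At the other end, 4 elements had mean CHG differences of below −11 points. The lowest was Ppersica_LTRretrotransposon3117, with means of 43.6% in the hybrid and 57.4% in peach over 26 copies, a difference of −13.8 ± 11.0 points, and 25 copies were lower. Ppersica_LTRretrotransposon4101 followed with 53.0% in the hybrid and 65.7% in peach over 24 copies, a difference of −12.7 ± 7.73 points, and 23 copies were lower. For Ppersica_LTRretrotransposon2768, 20 of 20 copies were lower, by a mean of −11.8 ± 8.10 points. The MITE family SE320500016fam28_479 had a mean of −11.7 ± 14.0 points over 24 copies. Of all TEs, 79.7% were lower in CHG. These elements were named for their low CHG means, so the counts of lower copies follow in part from that choice. Of the highest 4 by the same ranking, the one not yet named was Tedenovo8576, annotated as a TIR transposon, with means of 62.4% in the hybrid and 59.9% in peach (n = 33).

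In CG the elements farthest below peach were partly methylated in both genotypes. Copies of Ppersica_LTRretrotransposon2200 had means of 35.4% in the hybrid and 53.9% in peach over 20 copies, a difference of −18.6 ± 15.4 points. The MITE family Prupefam5_241 had means of 50.3% in the hybrid and 60.3% in peach over 137 copies, a difference of −10.04 ± 19.7 points. The only elements with a mean above 0 were Tedenovo4025, with 63.6% in the hybrid and 57.7% in peach over 49 copies, and Tedenovo11441, with a mean difference of 0.18 points over 35 copies. The median of Tedenovo4025, annotated as a LINE, was −0.196 points, so a few copies set its mean.

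In CHH, copies of Pdulcis26_LTRretrotransposon307 had means of 71.0% in the hybrid and 79.3% in peach over 20 copies, a difference of −8.37 ± 9.86 points, and SE320500016fam28_479 had a mean of −5.82 ± 11.3 points over 28 copies. On the other side, copies of Ppersica_LTRretrotransposon3956 had means of 68.9% in the hybrid and 63.5% in peach over 23 copies, a difference of 5.41 ± 11.5 points. Those of Ppersica_LTRretrotransposon4892 had means of 35.0% in the hybrid and 29.7% in peach over 31 copies, a difference of 5.33 ± 8.90 points. All of these had median lengths under 500 bp, where the spread among TEs was wide.

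Some single TEs had large differences of the same direction in CG and CHG. Those given here were among the most extreme in CG or in CHG. An LTR retrotransposon copy on chromosome 4 at 9321087 to 9327429 had 13.0% CG and 0.275% CHG methylation in the hybrid, against 87.2% and 72.9% in peach. A copy of Tedenovo10997 on chromosome 3 at 15094086 to 15095380 had 18.0% CG and 1.53% CHG in the hybrid, against 71.5% and 52.8% in peach. The opposite was found for a copy of Tedenovo4025 on chromosome 4 at 24069348 to 24074709, with 83.2% CG and 74.2% CHG in the hybrid, against 3.95% and 0.760% in peach. In CHG these TEs had at most 1.53% in one genotype and from 52.8% to 74.2% in the other. The means over all TEs were 61.4% in the hybrid and 66.1% in peach. In CG the Tedenovo10997 copy was below the peach mean of 91.3% in both genotypes. Such contrasts follow in part from choosing extreme differences.

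Among TEs of at least 1000 bp with values in all contexts, the 4 that were highest in CG all had under 7% CG methylation in peach and from 79.5% to 83.6% in the hybrid. They were copies of 2 elements, Tedenovo4025 and Tedenovo9828. Having been chosen for the largest CG rises, they had to be low in peach and high in the hybrid. Large CHH differences did not need a CG difference. A copy of Ppersica_LTRretrotransposon2045 on chromosome 7 at 17766978 to 17769568 had 6.72% CHH methylation in the hybrid and 44.2% in peach, with 24.1% CHG in the hybrid and 66.4% in peach, while its CG was 85.5% in the hybrid and 85.8% in peach. A copy of Ppersica_LTRretrotransposon18 on chromosome 5 at 8724050 to 8725217 had 79.7% CHH methylation in the hybrid and 43.6% in peach, with 91.6% CHG in the hybrid and 90.7% in peach.

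Within a TE, the differences in CHG went together with those in CG and in CHH, and those in CG and CHH did so less. Over the 16712 TEs compared in all 3 contexts, the correlation across TEs was 0.358 between CG and CHG, 0.271 between CHG and CHH and 0.104 between CG and CHH. The Spearman values were 0.236, 0.239 and 0.0293 in the same order. The contexts of a TE share reads and libraries, and 2.90% of these TEs had the same 6 values as another TE, so the values describe this table. Among TEs of 10000 bp or more the correlation was 0.213 between CG and CHG, 0.251 between CHG and CHH and −0.0274 between CG and CHH.

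By direction, 6402 TEs, or 38.3%, were lower in the hybrid in all 3 contexts, and 4932, or 29.5%, were lower in CG and CHG but higher in CHH. Only 848 TEs, or 5.07%, were higher in all 3. Within 10 points in every context were 11778 TEs, or 70.5%. By more than 10 points, 57 TEs, or 0.341%, were lower in all 3 contexts, and 14 TEs, or 0.0838%, were higher in all 3.

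TEs past 10 points in CG were often past it in CHG, and the reverse was less frequent, as CHG had more such TEs. Of 1160 TEs lower in CG by over 10 points with a CHG value, 508 were lower by over 10 points in CHG. These were 43.8% of the 1160 TEs, against 18.5% lower in CHG among all TEs compared in both. They were 16.3% of the 3108 TEs lower in CHG, against 6.92% lower in CG among all TEs compared in both. Of 400 TEs lower in CHH by over 10 points with a CHG value, 196 were lower by over 10 points in CHG. These were 49.0% of the 400 TEs, against 18.8% lower in CHG among all TEs compared in both. They were 6.01% of the 3263 TEs lower in CHG, against 2.30% lower in CHH among all TEs compared in both. TEs higher in CHG by over 10 points had a median CG difference of −0.108 points, with CG means of 85.2% in the hybrid and 81.0% in peach. TEs higher in CG by over 10 points had a mean CHG difference of 12.7 points and CHG means of 36.7% in the hybrid and 24.1% in peach.

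All 24 representative peach copies of transcribed TE families were found in the table by their coordinates and could be compared in each context. In CG, 19 of the 24 were lower in the hybrid, 4 by over 10 points, and 1 was higher by over 10 points, beside 78.4%, 7.12% and 1.95% of all TEs. The TIR_1970 copy had 24.1% CG and 14.4% CHG methylation in the hybrid, against 70.2% and 40.1% in peach. The LINE_9417 copy had 6.41% CG methylation in the hybrid and 46.2% in peach, and its CHG methylation was 0% in the hybrid and 0.880% in peach. In the opposite direction, the LINE_11441 copy had 35.8% CG and 14.4% CHG methylation in the hybrid, against 7.02% and 0.230% in peach.

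In CHG, 17 of the 24 copies were lower in the hybrid, and 2 were lower and 2 higher by over 10 points, beside 79.7%, 18.9% and 4.77% of all TEs. The median difference was −0.677 points, and several of these copies had low CHG methylation in both genotypes. The TIR_3706 copy had 47.2% CHG methylation in the hybrid and 20.9% in peach, with 88.2% CG in the hybrid and 85.8% in peach. The LTR_3 copy, on chromosome 6 at 27139890 to 27148350, had 77.9% CHG methylation in the hybrid and 83.3% in peach, close to the difference of long TEs in general. In CHH, 12 of the 24 were lower, beside 51.8% of all TEs. By over 10 points, 0 of the 24 differed, beside 2.95% lower and 3.38% higher among all TEs, so that 24 copies are too few to tell from these shares.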

How the data were processed

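The deposited methylation values are percentages. The authors aligned the bisulphite reads with Bismark 0.19.1, keeping unique best alignments and cytosines covered by 3 or more reads, and derived with SeqMonk a percent methylation per annotated TE, using TE copies with reads over a minimum share of their length. TEs without a value were left out. The table has 1 value for the 2 libraries of a genotype, and how they were joined is not given in the sources used here. The genome build is not given in the sources used here, and coordinates are those of the table. From the table of the hybrid against almond, only copies of the named elements and the share of all its TEs higher in CHG are reported. Columns of sample values left unused numbered 0.

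Here, hybrid minus peach was computed for each TE with both values, with length as end minus start plus 1, and summarised with Python 3.11.15, pandas 2.3.3 and numpy 2.4.6. Figures were drawn with matplotlib 3.10.9. No test was run, as there was 1 value per genotype. The scripts were tested on simulated data. Of the TEs with a pair, 40.6% overlapped another listed TE.

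Named TEs were those of at least 1000 bp with the 4 lowest and highest differences in a context (a selection of these is described). Named elements had at least 20 compared copies and the 4 lowest or highest means in CHG, or the 2 lowest or highest in CG and CHH. Windows of 1 Mb with the lowest or highest mean, and the representative copies of transcribed families, were named too. Members, lists and alternatives were chosen with earlier results of these data known. Alternatives were other TE subsets, medians, weights by length, thresholds of 5 and 20 points, windows of 2 Mb, and other levels for the bins. RNA-seq counts and rlog values were not used here.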

Additional observations from a re-analysis of the deposited data

How the results depend on the processing

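Of 93 alternatives over 21 summary values, 45 stayed within 1.5-fold of the value reported and kept its sign, 34 kept the sign only, and 14 changed it. No paired analysis was possible because the table holds 1 percentage per genotype, and for the same reason no library could be left out. The depth behind a percentage is unknown, so the precision of a single TE is unknown.

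The mean CG difference of −2.44 points had a median of −1.62. The mean CHG difference lay between −5.03 and −4.04 points under the 10 alternatives tried for it. The mean CHH difference of 0.0269 points was near 0 and had no stable sign. It was −2.23 as a difference of means over every TE with a value in a genotype, −0.0772 as a median, −0.0436 weighted by length, −0.0337 for TEs of 500 bp or more, −0.0760 for those of 2000 bp or more and −0.0344 for TEs with values in all 3 contexts. It was 0.0457 for TEs that overlap no other, from −0.00372 to 0.0596 with 1 chromosome left out, and 0.0136 without the 3 elements, an alternative chosen after seeing the data.

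With a threshold of 5 points, 18.0% of TEs were lower and 3.94% higher in CG, 50.2% and 8.61% in CHG, and 7.55% and 8.43% in CHH. With 20 points these shares were 2.22% and 0.963% in CG, 4.10% and 2.03% in CHG, and 0.606% and 0.776% in CHH. Over TEs of 500 bp or more, 1.47% were lower and 1.80% higher in CHH by over 10 points.

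TEs of 5000 bp or more minus TEs under 500 bp gave 0.605 points in CG, but −0.341 with medians, 0.130 without overlapping TEs and 0.236 for LTR retrotransposons. In CHG it was −0.0776 points, but −2.41 with medians, 0.729 without overlapping TEs, 1.22 for LTR retrotransposons and −0.966 without the 3 elements. In CHH it was −0.306 points, −0.520 without overlapping TEs and −0.573 for LTR retrotransposons.

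The upper 25% of TEs by peach level minus the lower 25% gave 0.0260 points in CG, but 4.93 by the mean of both genotypes and −0.0538 by the CHG level. In CHG it was −3.81 points, but 1.16 by the mean of both and −2.13 by the CG level. In CHH it was −1.27 points, and 0.581 by the mean of both. The peach value is part of the difference in the first of these.

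Windows with the most TEs minus those with the fewest gave −0.0506 points in CG, but −0.157 in 2 Mb windows, −0.409 for TEs of 2000 bp or more and 0.00668 without TEs within 1 Mb of the clustered copies, the last chosen after seeing the data. In CHG it was −1.004 points, and −0.597 in 2 Mb windows. In CHH it was 0.405 points, 0.620 in 2 Mb windows and 0.231 for TEs of 2000 bp or more. By Spearman, the correlation of CG with CHG was 0.236 and that of CG with CHH 0.0293, the last being 0.0312 for TEs of 2000 bp or more. Where not stated, the cause was not tested.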
